A study of Homo sapiens with 6 samples.

Results

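The 10 genes described here encode ligands and receptors of the platelet-derived growth factor (PDGF) and vascular endothelial growth factor (VEGF) families. They were taken by gene name from a count table of 58735 genes. They comprise the PDGF receptors PDGFRA and PDGFRB, the VEGF receptor FLT1, the PDGF ligands PDGFA, PDGFB, PDGFC and PDGFD, and the VEGF ligands VEGFA, VEGFB and VEGFC. All 10 passed the filter on low counts.

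UE7T-9 is a line of human mesenchymal stem cells (MSCs) derived from bone marrow. Control samples were UE7T-9 cells labelled wild type, and SRRM4 KO samples were UE7T-9 cells in which SRRM4, a splicing regulator best known in neurons, was targeted with a lentiviral CRISPR v2 vector. Cells of both groups were kept in DMEM, and no drug treatment of the sequenced samples is given. The SRRM4 KO line was selected with puromycin, grown from 1 clone and described by the study as a partial knockout, so genotype and clone cannot be told apart in the comparison. The labels do not say whether the control cells were also cloned, exposed to a vector or selected. For each group 3 mRNA-seq libraries were made from total RNA without strand information. They held between 21496117 and 23868323 counts. At this depth a gene with 0 counts may still have up to 3, which is 0.126 to 0.140 CPM (counts scaled to library size), and this limit covers counting error only. SRRM4 had 0 counts in all 6 libraries, and its RNA therefore could not be used to check the genotype. Control 1 had counts on 22403 genes, more than the 20613 and 20674 of its group. The labels do not say whether the 3 libraries of a group came from separate cultures, so the p-values measure the spread between these samples, which may be technical. Of the markers that define MSCs, NT5E and ENG were measured at 342 and 246 CPM in control and at 490 and 194 CPM in SRRM4 KO cells. THY1 was 144 CPM in control and 26.7 CPM in SRRM4 KO cells. Of the markers that MSCs should lack, PTPRC, CD79A, HLA-DRA and ITGAM had at most 14 counts in any library, CD34 had 66 to 93 counts and CD14 had 324 to 392.

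PDGF ligands are dimers that join a pair of receptor tyrosine kinases, PDGFRA and PDGFRB, on mesenchymal cells, where they drive division and migration. PDGF-A and PDGF-C act mainly through PDGFRA, PDGF-B through both receptors, and PDGF-D mainly through PDGFRB. VEGF ligands act on the related receptors FLT1 (VEGFR1), KDR (VEGFR2) and FLT4 (VEGFR3), best known from endothelium. FLT1 binds VEGF-A and VEGF-B and is also made in a soluble form that traps ligand, while VEGF-C acts mainly through FLT4 and KDR. In bone marrow, cells of the mesenchymal lineage carry both PDGF receptors, and these serve as markers of stromal cells.

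All 3 receptors fell in SRRM4 KO cells, FLT1 by 49.9-fold, PDGFRB by 4.42-fold and PDGFRA by 2.91-fold. No ligand passed both thresholds, which were 0.05 for the adjusted p and 1 for the size of the log2 fold change. PDGFA and VEGFC fell by smaller amounts that passed on the adjusted p alone, and PDGFB, PDGFC, PDGFD, VEGFA and VEGFB did not pass the test. The 3 of 10 members called lower stand beside 7.14% of all 15341 tested genes called lower, and the 0 called higher beside 5.45% called higher (edgeR, quasi-likelihood test, Benjamini-Hochberg adjusted). DESeq2 also called 3 lower and 0 higher, and 0 members were higher at an unadjusted p under 0.05. The control and SRRM4 KO libraries did not overlap for 5 of the 10 members, and for 51.8% of all tested genes. The median log2 fold change of all tested genes was -0.01. In bulk RNA, fewer cells that carry a transcript and less of it per cell cannot be told apart.

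**Figure D1:**
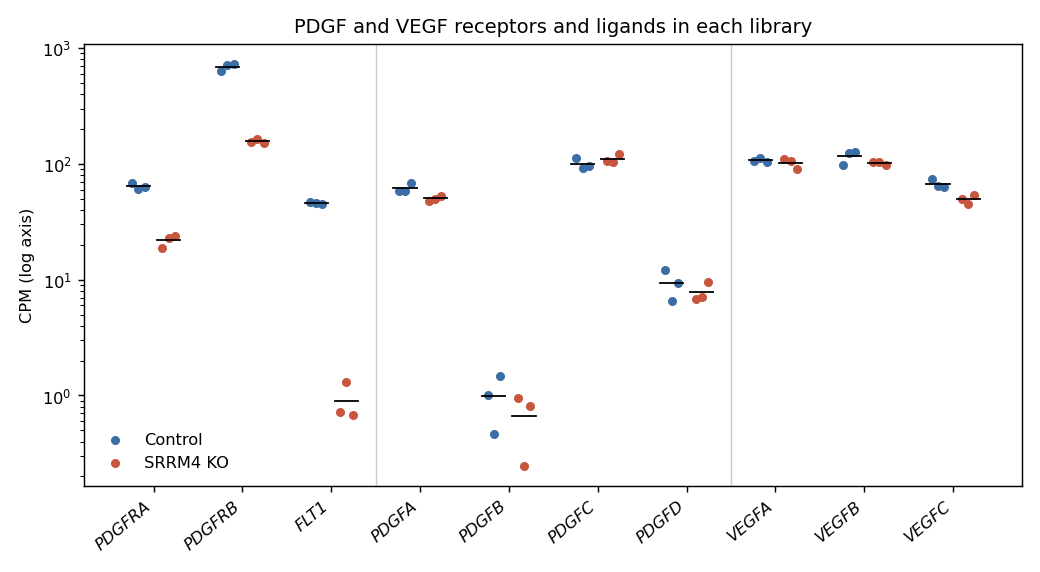
CPM of the 10 genes in each library on a log axis, with the 3 control and 3 SRRM4 KO libraries as points and the group means as bars. The control and SRRM4 KO points of FLT1, PDGFRB and PDGFRA are far apart, those of PDGFA and VEGFC are close but do not overlap, and those of the other 5 ligand genes overlap.

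PDGFRB (ENSG00000113721; GRCh38 chr5:150113837-150155872, minus strand) encodes the PDGF receptor β chain, a marker of pericytes and stromal cells. It was counted 13834, 15292 and 16227 times in control replicates 1 to 3, and 3467, 3959 and 3337 times in SRRM4 KO replicates 1 to 3. Every SRRM4 KO library lay far below every control library, and the spread within each group was small beside the gap. The mean level was 692 ± 47.1 CPM in control and 157 ± 5.52 CPM in SRRM4 KO cells (SD, n = 3). The log2 fold change was -2.14 (SE 0.079, 95% interval -2.31 to -1.97), with an adjusted p of 3.82e-11 by edgeR's quasi-likelihood test. PDGFRB was the most abundant of the 10 genes per length in control, and it stayed well expressed in SRRM4 KO cells.

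PDGFRA (ENSG00000134853; chr4:54229097-54298247, plus strand) encodes the PDGF receptor α chain. Its counts were 1493, 1309 and 1398 in control and 421, 562 and 528 in SRRM4 KO cells, again with no overlap between the groups. The level fell from 64.1 ± 4.25 to 22.0 ± 2.72 CPM (SD, n = 3). The log2 fold change was -1.54 (SE 0.11, 95% interval -1.78 to -1.30, adjusted p = 4.53e-08 by edgeR). The annotation places 15.8% of the exon bases of PDGFRA also in AC058822.1, on the same strand, and AC058822.1 had 0 counts in every library.

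FLT1 (ENSG00000102755; chr13:28300344-28495145, minus strand) encodes VEGFR1. It was counted 1025, 981 and 1002 times in control and only 16, 32 and 15 times in SRRM4 KO cells. The control libraries were within a narrow range, and the SRRM4 KO libraries lay near the lower end of what the depth can measure but above the 3-count limit. The mean level went from 45.9 ± 1.23 CPM to 0.905 ± 0.355 CPM (SD, n = 3). The log2 fold change was -5.64 (SE 0.19, 95% interval -6.05 to -5.23, adjusted p = 1.85e-11 by edgeR), which placed it among the 69 lowest fitted values of the 15341 tested genes. PDGFRB came 411th and PDGFRA 680th in the same order, where some lower values belong to genes at 0 in SRRM4 KO cells. Gene-level counts do not separate the membrane form of FLT1 from the soluble form.

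The 3 receptor genes moved in the same direction, so the sequences just upstream of their starts are shown for context (RefSeq, GRCh38.p14, strand of the gene, 5′ to 3′). The window was 250 bases before to 50 bases after each start, and a window was found for 7 of the 10 members, not for PDGFB, PDGFC or VEGFA. Each stretch ends before the first base that lies in an annotated exon. Capitals mark the letters of CCAAT, of GGGCGG (a GC box), of TATAAA and of TGACGTCA (a cAMP response element), searched on both strands, so that CCGCCC is a GC box on the other strand. The PDGFRB stretch is chr5:150155873-150156095 (minus strand), the FLT1 stretch is chr13:28495146-28495378 (minus strand), and the PDGFRA stretch, chr4:54233710-54233959 (plus strand), precedes its second annotated start.
PDGFRB: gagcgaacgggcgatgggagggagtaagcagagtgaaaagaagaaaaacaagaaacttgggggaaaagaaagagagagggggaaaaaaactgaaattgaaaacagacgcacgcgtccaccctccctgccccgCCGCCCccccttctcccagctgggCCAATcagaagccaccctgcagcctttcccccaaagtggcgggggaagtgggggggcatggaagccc
FLT1: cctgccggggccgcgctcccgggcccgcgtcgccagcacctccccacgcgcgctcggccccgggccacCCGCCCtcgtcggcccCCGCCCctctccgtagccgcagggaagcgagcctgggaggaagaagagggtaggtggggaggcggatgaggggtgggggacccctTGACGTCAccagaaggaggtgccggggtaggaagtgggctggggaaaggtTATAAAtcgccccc
PDGFRA: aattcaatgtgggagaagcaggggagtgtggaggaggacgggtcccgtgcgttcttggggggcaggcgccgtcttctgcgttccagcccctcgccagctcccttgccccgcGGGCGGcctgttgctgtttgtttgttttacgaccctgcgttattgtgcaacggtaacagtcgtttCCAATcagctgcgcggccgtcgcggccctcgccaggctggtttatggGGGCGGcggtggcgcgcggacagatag
The PDGFRB stretch holds 1 CCAAT and 1 GC box, the PDGFRA stretch 1 CCAAT and 2 GC boxes, and the FLT1 stretch 2 GC boxes, 1 TATAAA and 1 TGACGTCA. The 54 bases before the first annotated start of PDGFRA that lie outside exons (chr4:54229043-54229096) hold 0 of these motifs and are not printed. CCAAT occurs in 34.6% of all 35116 RefSeq promoter windows of 300 bases, GGGCGG in 45.0%, TATAAA in 11.5% and TGACGTCA in 1.85%. The printed stretches are shorter than these windows, and in its full window PDGFRB has 2 GC boxes and FLT1 has 3. GC boxes were not particular to the receptors. The windows of the ligands VEGFB, VEGFC and PDGFD hold 9, 2 and 1, and those of PDGFA hold 1 to 5 each. A PDGFA window also holds 1 CCAAT. The core letters of the hypoxia-inducible factor (HIF) site, ACGTG, occur in 21.4% of all windows and in none of the 11 windows of those 7 members. These matches are descriptions of letters, and no binding was measured.

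**Figure D2:**
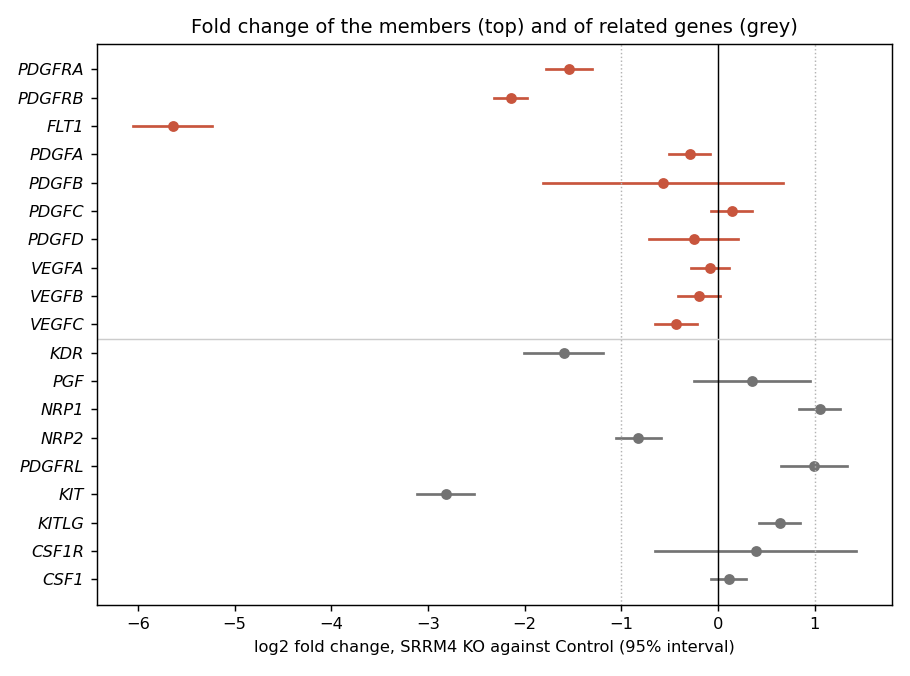
Log2 fold change of each member, SRRM4 KO against control, and in grey of 9 related genes, with 95% intervals from edgeR and dotted lines at -1 and 1. The intervals of the 3 receptors lie below -1, and the values of all 7 ligands lie between -1 and 1.

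Among the PDGF ligands, only PDGFA passed on the adjusted p. PDGFA (ENSG00000197461; chr7:497258-520296, minus strand) encodes the A chain, a ligand of PDGFRA. Its counts of 1254, 1264 and 1522 in control lay above the 1063, 1217 and 1171 of SRRM4 KO cells once scaled for library size, with 61.6 ± 5.77 CPM against 50.3 ± 2.76 CPM (SD, n = 3). The log2 fold change was -0.29 (SE 0.099, 95% interval -0.50 to -0.08, adjusted p = 0.0274 by edgeR), a pass that 41.6% of all tested genes shared in either direction and 20.9% as lower. It did not pass without Control 3 (adjusted p = 0.145), SRRM4 KO 1 (0.114) or SRRM4 KO 2 (0.0852). The 19 tested genes within 1 Mb of PDGFA had a median log2 fold change of -0.56 and all lay below 0, and the genes of chromosome 7 had a median of -0.25. With that chromosome median subtracted, the value for PDGFA was -0.038, for which no p was computed.

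PDGFC (ENSG00000145431; chr4:156760454-156971394, minus strand) encodes a ligand that is activated by removal of its CUB domain and binds mainly PDGFRA. It was the most abundant PDGF ligand per length. Its counts were 2449, 1979 and 2146 in control and 2374, 2516 and 2679 in SRRM4 KO cells, and the groups overlapped. The levels were 100.3 ± 11.2 and 111 ± 9.84 CPM (SD, n = 3), with a log2 fold change of 0.14 (95% interval -0.07 to 0.35, adjusted p = 0.288 by edgeR). Without Control 1 the value was 0.23 and passed on the adjusted p (0.0204).

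PDGFB and PDGFD, the ligands that activate PDGFRB, were the lowest members in control. PDGFB (ENSG00000100311; chr22:39223359-39244751, minus strand) was counted 22, 10 and 33 times in control and 21, 6 and 18 times in SRRM4 KO cells. At 0.986 ± 0.508 and 0.669 ± 0.371 CPM (SD, n = 3), its log2 fold change of -0.57 had an interval of -1.81 to 0.68 (adjusted p = 0.471 by edgeR), which does not exclude a 2-fold change in the direction of a fall at this depth. When single libraries were left out, the value for PDGFB ran from -0.90 to -0.15. PDGFD (ENSG00000170962; chr11:103907186-104164379, minus strand) was counted 261, 141 and 210 times in control and 153, 171 and 212 times in SRRM4 KO cells, and the groups overlapped. The levels were 9.33 ± 2.75 and 7.84 ± 1.55 CPM (SD, n = 3), and the log2 fold change was -0.25 (95% interval -0.71 to 0.21, adjusted p = 0.382 by edgeR). Without Control 1 the value was -0.028, and without Control 2 it was -0.455. The annotation places 4.52% of the exon bases of PDGFD also in DDI1, on the opposite strand, and DDI1 had 0 counts throughout.

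Among the VEGF ligands, VEGFC was the member that fell. VEGFC (ENSG00000150630; chr4:176683538-176792727, minus strand) encodes the ligand best known for growth of lymphatic vessels. It was counted 1593, 1378 and 1397 times in control and 1099, 1102 and 1178 times in SRRM4 KO cells, with no overlap. Its CPM was 66.7 ± 5.93 in control against 49.4 ± 4.14 (SD, n = 3), and the log2 fold change was -0.43 (SE 0.10, 95% interval -0.65 to -0.22, adjusted p = 0.00296 by edgeR). When single libraries were left out, its adjusted p was 0.00206 to 0.0246.

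VEGFA (ENSG00000112715; chr6:43770184-43786487, plus strand) encodes the main angiogenic ligand and is induced by low oxygen. Its counts of 2306, 2442 and 2326 in control and 2458, 2569 and 1997 in SRRM4 KO cells overlapped. The levels were 108 ± 4.74 and 102 ± 10.2 CPM (SD, n = 3), and the log2 fold change of -0.08 had an interval of -0.28 to 0.12 (adjusted p = 0.532 by edgeR). VEGFB (ENSG00000173511; chr11:64234538-64238793, plus strand) encodes a ligand of FLT1, and its counts also overlapped between the groups, at 2117, 2690 and 2847 in control and 2303, 2531 and 2169 in SRRM4 KO cells. Its levels were 117 ± 16.5 and 102 ± 2.95 CPM (SD, n = 3), with a log2 fold change of -0.19 (95% interval -0.41 to 0.02, adjusted p = 0.143 by edgeR). Without Control 1, its lowest control library, the value was -0.31 and passed on the adjusted p (0.000843). The intervals of VEGFA and VEGFB lie well inside a 2-fold change in either direction.

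Levels of different genes were compared as CPM per kb of gene length. In control the order was PDGFRB at 96.9, VEGFB at 75.5, VEGFC at 27.5, PDGFC at 17.9, PDGFA at 14.8, VEGFA at 7.48, PDGFRA at 6.58, FLT1 at 3.65, PDGFD at 2.19 and PDGFB at 0.262 CPM per kb. The libraries of adjacent genes in this order did not overlap, except those of PDGFC and PDGFA. In SRRM4 KO cells VEGFB came first at 66.0 CPM per kb, and PDGFRB, VEGFC and PDGFC followed at 21.9, 20.4 and 19.8. There PDGFRB lay below VEGFB and overlapped VEGFC and PDGFC, and VEGFC overlapped PDGFC. PDGFRB still stood above PDGFA at 12.1 and above VEGFA, PDGFD and PDGFB. PDGFRA at 2.26 overlapped PDGFD at 1.84 CPM per kb, and FLT1 moved to the last place at 0.0720, where it overlapped PDGFB at 0.178. The gene length is the union of all annotated exons, so genes expressed from a short isoform read low on this scale.

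**Figure D3:**
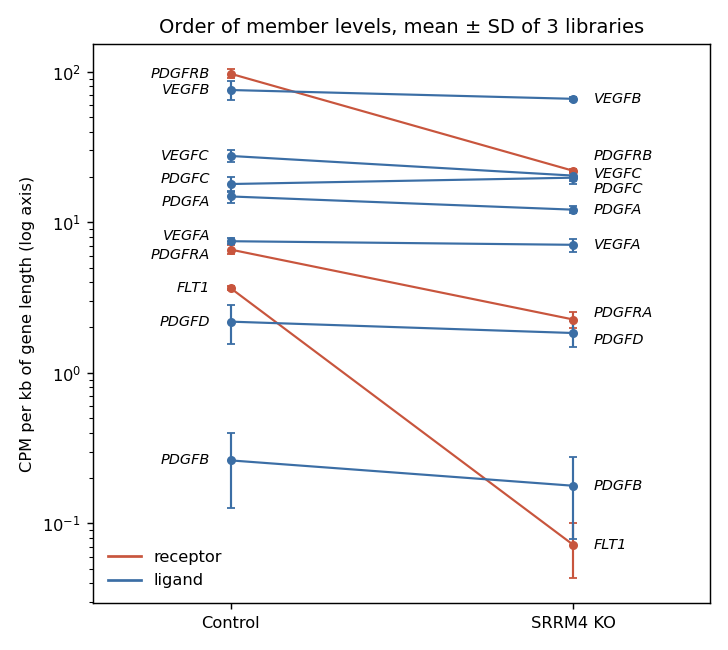
Mean CPM per kb of gene length (± SD, 3 libraries, log axis) of each member in control and SRRM4 KO cells, receptors in red and ligands in blue. PDGFRB drops from 96.9 to 21.9 CPM per kb, next to VEGFC and PDGFC, and FLT1 drops from 3.65 to 0.0720 CPM per kb, while the lines of the ligands are much flatter.

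The balance within each family was read as a share of its summed counts per kb in the same library, which does not depend on library size. Of the PDGF receptor RNA, PDGFRA made up 7.33%, 5.91% and 5.94% in control and 8.18%, 9.43% and 10.4% in SRRM4 KO cells. Its share was thus higher in every SRRM4 KO library, with means of 6.39% ± 0.814 and 9.33% ± 1.11 (SD, n = 3). An exact two-sided permutation test gave p = 0.10, the smallest that 3 against 3 libraries allow, or 0.267 after Benjamini-Hochberg adjustment over the 8 shares tested. PDGFRB therefore supplied most PDGF receptor RNA in both groups.

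Of the PDGF ligand RNA, the share of PDGFA went from 42.2% ± 4.21 to 35.8% ± 1.42 and that of PDGFC from 50.9% ± 3.40 to 58.3% ± 0.828 (SD, n = 3). Neither overlapped between the groups, and both had an exact permutation p of 0.10. PDGFB held 0.731% and 0.521%, and PDGFD 6.14% and 5.39%, with overlapping libraries (exact permutation p = 0.50 and 0.70). Of the VEGF ligand RNA, VEGFB held 68.1% and 70.6%, VEGFC 25.1% and 21.8%, and VEGFA 6.79% and 7.57% (exact permutation p = 0.60, 0.40 and 0.30). These shares depend on the gene length used, since VEGFA has a union of exons of 14431 bases and VEGFB one of 1545. In counts not divided by length, VEGFA held 37.1% and 40.2%, VEGFB 39.9% and 40.2%, and VEGFC 23.0% and 19.5%. No share passed the threshold, which this design cannot reach.

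Among close relatives of the members, KDR, the main signalling receptor for VEGF-A, fell from 9.42 ± 0.705 to 3.11 ± 0.494 CPM (SD, n = 3; log2 fold change -1.60, adjusted p = 8.09e-06 by edgeR). FLT4 had 4, 0 and 6 counts in control and 0 in each SRRM4 KO library, too few to test. Between FLT1 and KDR, FLT1 made up 73.9%, 71.6% and 69.8% of their summed counts per kb in control and 11.9%, 19.3% and 8.82% in SRRM4 KO cells, a ratio chosen after its values were seen and not tested. The co-receptor NRP1 rose from 46.7 to 96.7 CPM (log2 fold change 1.05, adjusted p = 8.12e-07 by edgeR), a value of 0.96 without Control 2. NRP2, the co-receptor that binds VEGF-C, went from 51.2 to 28.97 CPM (log2 fold change -0.82, adjusted p = 2.52e-05 by edgeR) and was not past the fold threshold. The FLT1 ligand PGF was 2.48 and 3.16 CPM (adjusted p = 0.348). KIT, a receptor of the PDGFRA class and its neighbour on chromosome 4, fell from 45.9 to 6.52 CPM (log2 fold change -2.82, adjusted p = 6.48e-10 by edgeR). Of the 12 relatives, 9 were tested, 1 was called higher and 2 lower, and their median log2 fold change was 0.35 beside -0.01 for all tested genes. For this list and those below, the shares of all tested genes called were 5.45% higher and 7.14% lower.

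The genes that process or bind the ligands outside the cell were all 14 tested, with 1 called higher, 3 called lower and a median log2 fold change of -0.43. PLAT, the protease that activates PDGF-C, rose from 72.6 ± 7.47 to 184 ± 6.83 CPM (SD, n = 3; log2 fold change 1.34, adjusted p = 2.47e-08 by edgeR). The proprotein convertases PCSK5 and PCSK6 fell, with log2 fold changes of -1.25 and -2.67, and so did the procollagen protease ADAMTS2, with -1.97. FURIN, the convertase that cleaves VEGF-C and PDGF precursors, had a log2 fold change of 0.60 and passed on the adjusted p alone, and so did PLAU at 0.98 and SPARC, a matrix protein that binds PDGF-B, at -0.84. On the adjusted p alone, 5 of the 14 were higher and 8 lower, beside 20.7% and 20.9% of all tested genes.

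Of 30 genes that relay the signal at the receptors (adaptors, PI3-kinase subunits, SRC family kinases and phosphatases), 29 were tested and 0 were called in either direction by edgeR or by DESeq2, with 5 higher and 5 lower at an unadjusted p under 0.05. On the adjusted p alone 5 were higher and 4 lower, beside 20.7% and 20.9% of all tested genes. The other 20 did not pass, and the median log2 fold change was -0.05. Of 25 genes that respond to the ERK pathway, 4 were called higher (CCND1, DUSP4, DUSP5 and IER3) and 1 lower (FOS), with a median log2 fold change of 0.30. On the adjusted p alone 13 of the 25 were higher and 1 lower, beside 20.7% and 20.9% of all tested genes. CCND1, a cyclin of G1 phase, rose from 137 ± 6.25 to 388 ± 6.51 CPM (SD, n = 3), or 2.82-fold. The ERK phosphatases DUSP4 and DUSP5 rose by 1.94 and 1.62 on the log2 scale, and IER3, an early response gene, by 1.35. FOS, a subunit of AP-1, fell from 216 to 100.03 CPM (log2 fold change -1.11), a value of -0.98 without Control 3. RNA levels do not show the activity of the pathway, which was not measured in these libraries.

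**Figure D4:**
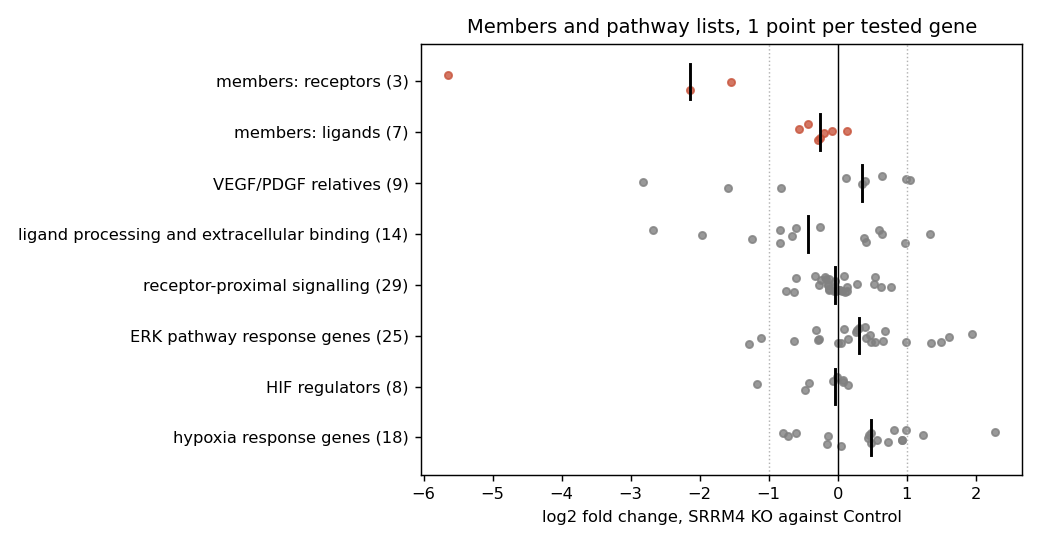
Log2 fold change of each tested gene (points) among the members and in the lists of relatives, ligand processing, receptor-proximal signalling, ERK response, HIF regulators and hypoxia response, with the number of genes in brackets and the median as a bar. The receptor-proximal genes all lie between -1 and 1, while the ERK response list has a median of 0.30 and the hypoxia response list one of 0.48.

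VEGFA is a target of the HIF factors, whose genes were therefore listed. Of 8 tested HIF regulators, 0 were called higher and 1 lower by edgeR and by DESeq2, and 0 were higher and 3 lower at an unadjusted p under 0.05. EPAS1, which encodes HIF-2α, fell from 1027 ± 7.39 to 457 ± 11.4 CPM (SD, n = 3; log2 fold change -1.17, adjusted p = 2.58e-09 by edgeR). HIF1A was 630 and 665 CPM, with a log2 fold change of 0.08 (adjusted p = 0.566). Of 18 tested genes of the hypoxia response other than VEGFA, 2 were called higher and 0 lower by edgeR and by DESeq2. On the adjusted p alone, and also on the unadjusted p, 11 were higher and 3 lower, and the median log2 fold change was 0.48. Beside both lists, 5.45% of all tested genes were called higher and 7.14% lower. On the adjusted p alone, 20.7% of all tested genes were higher and 20.9% lower. The glucose transporter SLC2A1 rose from 94.3 to 221 CPM (log2 fold change 1.23) and ANGPTL4, a secreted lipase inhibitor, from 0.551 to 2.69 CPM (2.28). VEGFA, at -0.08, did not pass the test.

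Markers of other cell types that carry these receptors were low or mixed. Of 11 endothelial markers 4 were tested, with 1 called higher and 2 lower by edgeR and 3 lower by DESeq2. Beside this list and the next, 5.45% of all tested genes were called higher and 7.14% lower. None was at 0 in all libraries, and the summed level was 23.8 to 27.0 CPM in control and 5.95 to 8.95 CPM in SRRM4 KO cells. PECAM1 and CDH5, which define endothelium, had at most 3 counts in any library. The markers with the highest levels in control were KDR, given above, and TEK, which fell with a log2 fold change of -3.80, while ROBO4 rose by 1.84 on the log2 scale. Of 10 markers of pericytes and mural cells 9 were tested, with 2 called higher and 3 lower by edgeR and 4 lower by DESeq2, and their summed level was 2726 to 3266 CPM in control and 1751 to 1942 CPM in SRRM4 KO cells. ACTA2, NOTCH3 and RGS5 fell, with log2 fold changes of -3.26, -2.46 and -2.88, and CSPG4 and ANPEP rose, with 1.46 and 1.01. On the adjusted p alone 3 were higher and 5 lower, beside 20.7% and 20.9% of all tested genes. These counts include TAGLN at -0.95, MCAM at -0.59 and ABCC9 at 0.92, which did not pass the fold threshold. The call of ANPEP was lost in 4 of the 6 fits that left out a library, and RGS5 shares its locus with another annotated gene of the same name. The part of these markers in the fall of the receptors was not tested.

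The receptors lie on chromosomes 4, 5 and 13, and their neighbours were read from the same fit. The 6 tested genes within 1 Mb of PDGFRA had a median log2 fold change of -0.41. Of these, 3 were called lower (LNX1, KIT and KDR, with log2 fold changes of -1.03, -2.82 and -1.60), and the other 3, SCFD2, FIP1L1 and CHIC2, had values of 0.22, 0.40 and 0.22. KIT and KDR lie on the side of PDGFRA with higher coordinates and encode related receptors. The genes of chromosome 4 had a median of 0.00. Around PDGFRB, 29 genes had a median of -0.18, with CARMN, CD74 and SYNPO called lower and SMIM3 called higher. CSF1R, the adjacent receptor of the same class, had a log2 fold change of 0.39 and did not pass the test (adjusted p = 0.560 by edgeR). Around FLT1, 9 genes had a median of -0.37, all below 0, beside a median of -0.27 for chromosome 13. LINC00543 was called lower, with 19, 12 and 14 counts in control and 0 in each SRRM4 KO library. The protein-coding neighbours of FLT1 had log2 fold changes between -0.70 and -0.17.

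**Figure D5:**
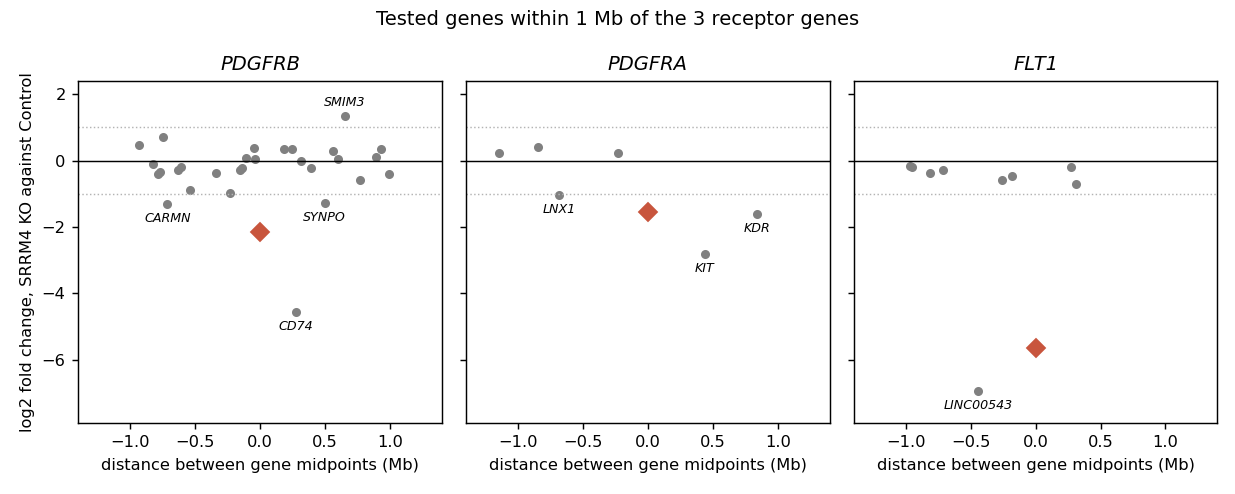
Log2 fold change of each tested gene within 1 Mb of PDGFRB, PDGFRA and FLT1 (red diamonds) against the distance in Mb between gene midpoints, with called genes named and dotted lines at -1 and 1. KIT and KDR lie to the right of PDGFRA at -2.82 and -1.60, and most genes near PDGFRB and FLT1 lie between -1 and 1.

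Over the 6 libraries, the protein-coding genes whose centred log2 CPM was most like that of PDGFRB were LBH, CNN1 and ICAM1, with root mean square differences of 0.0605, 0.0642 and 0.0767 on the log2 scale. Those most like PDGFRA were NALCN, MAF and RCAN2, at 0.0600, 0.0607 and 0.0739. FLT1 had no equally close gene, and its 3 nearest, CADM1, FMOD and PTPRZ1, differed by 0.143, 0.241 and 0.243. These are the nearest of 10786 candidates, each averaging 100 counts or more, and with 3 libraries in each group the likeness rests mostly on the size of the difference between the groups.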

How the data were processed

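Total RNA of UE7T-9 control and SRRM4 KO cells was sequenced as non-stranded mRNA-seq, 3 libraries each. The authors deposited raw counts per gene, without normalization. The submitters' processing notes name HISAT2 2.0.5, featureCounts 1.5.0-p3 and DESeq2, with no roles. All 58735 gene IDs were found in GENCODE release 29 (GRCh38), 58724 with the same start and end. How reads shared by genes were counted is not given in the sources used here.

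Groups followed the sample labels. Counts were tested with edgeR 4.0.16 in R 4.3.3 (TMM, filterByExpr, prior count 0.125, quasi-likelihood test, p-values adjusted by Benjamini-Hochberg over 15341 genes). Calls required both thresholds, 0.05 for the adjusted p and 1 for the absolute log2 fold change. CPM used TMM-scaled library sizes. SDs and intervals (95%) describe these libraries, and depth floors cover counting error only. Shares were compared by exact permutation tests. The text names all 10 members, the called genes of each list (at most 4 per direction), KDR, FLT4, PGF, NRP1, NRP2 and, per called member, the 3 genes of smallest root mean square difference, and other list and neighbouring genes were named after their values were seen. Members, lists and motifs were chosen with earlier results of these data known. A marker of the lists is not reported here.

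On simulated counts with 200 genes changed by 2 on the log2 scale, edgeR recovered 194 and called 3 unchanged genes of 15010 tested, and DESeq2 1.42.0 recovered 192. The changed genes were drawn from those above a minimum mean count. The recovery therefore does not cover genes with few counts, such as PDGFB, or smaller changes such as those of the ligands. Alternatives were other normalizations and filters, the replicate block, DESeq2, each library left out, glmTreat, no fold threshold, shares without length or with 1 count added, wider neighbourhoods and, added after seeing the data, subtraction of the chromosome median.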

Additional observations from a re-analysis of the deposited data

How the results depend on the processing

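The 3 receptors were called lower in every alternative fit, and no ligand was called in any that kept the fold threshold. Log2 fold changes ran from -2.20 to -2.08 for PDGFRB, from -1.62 to -1.45 for PDGFRA and from -6.03 to -5.37 for FLT1 over 13 alternatives each. Of these, subtraction of the chromosome median has no p of its own and was compared with 1 SD of the log2 CPM between replicates. It moved PDGFA from -0.29 to -0.038 and the other members by less than that SD. No result reversed its direction. With no fold threshold, 5 members passed as lower (PDGFRA, PDGFRB, FLT1, PDGFA and VEGFC) in place of 3, and of the genes in the pathway lists 37 passed as higher and 22 as lower, in place of 8 and 7. Without division by length, the difference in the VEGFA share of VEGF ligand RNA was 3.16 percentage points in place of 0.780. In the alternatives that kept the fold threshold, pathway list genes called higher numbered 6 (glmTreat) to 11 (without Control 3), and those called lower 5 (glmTreat) to 8 (upper-quartile normalization). The remaining 246 of 251 alternatives to the main values, these included, stayed within a tolerance, which was the same direction and the same call by both thresholds together for a fitted fold change, 1.5 times for a count and 1 SD for a share. Of 290 alternatives for single lists and neighbourhoods, 44 went beyond 1.5 times for a count or the SD for a median, and 246 stayed within it, some with a gene gained or lost. The medians near PDGFRA and FLT1 were -0.41 and -0.37 within 1 Mb and -0.06 and -0.20 within 5 Mb. PDGFB was not tested with the filter of 10 counts per library. PDGFA, PDGFC and VEGFB crossed the adjusted p of 0.05 in fits without a library, as given with their values, and in none of the other fits with a p of their own.

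Replicate numbers are shared by the groups, but nothing says that they pair the samples. Same-numbered libraries deviated from their group means with correlations of -0.05, 0.08 and -0.05 over 15341 genes, and not every library correlated best with its own number. With the replicate number as a block, the log2 fold changes of PDGFRB, PDGFRA and FLT1 were -2.14, -1.55 and -5.65, 3 members were called lower, and 842 genes were called higher and 1093 lower in all, against 836 and 1096 without it. Depth limits the statements on PDGFB, with 6 to 33 counts per library, and on FLT1 in SRRM4 KO cells, with 15 to 32.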
